A study of Mus musculus with 4 samples.

Results

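The miR-17-92 cluster and its paralogs miR-106b-25 and miR-106a-363 are groups of miRNAs that are each cut from a shared primary transcript, a polycistron. The 9 genes described here are Mir17, Mir18, Mir19a, Mir20a and Mir92-1 of miR-17-92, Mir106b, Mir93 and Mir25 of miR-106b-25, and Mir18b of miR-106a-363. They were chosen by name, with earlier results of these data known. Hairpins of these polycistrons with few or no regions are not among them. A called AGO2 region was given to a gene where both shared at least 1 base on the same strand (GENCODE annotation, mm10). All 9 held regions, among 365 miRNA genes with a region in any table and 2201 miRNA genes in the annotation. They account for 21 of 86106 regions in the knockout-labelled library and 19 of 46860 in the wild-type library.

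The study carried out eCLIP of AGO2, in which RNA is crosslinked to the Argonaute protein, immunoprecipitated (IP) with the antibody EAG009 and sequenced beside an input of matched fragment size. Whole brains came from C57BL/6 mice on postnatal day 0, from animals labelled FMR1 ko and from wild-type animals. Fmr1 encodes FMRP, an RNA-binding protein; the labels give neither the knockout allele nor the number of brains per library. Of 4 samples in the labels, an IP and an input per genotype, the 2 IPs have processed files, and a further deposited table compares both IPs with each other.

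A primary miRNA transcript is cut by Drosha into hairpins, which Dicer trims to a duplex. AGO2 keeps mainly a single arm of the duplex, named 5p or 3p, and is guided by the seed near its 5′ end to matching sites, most often in 3′ UTRs. The miR-17-92 miRNAs are known for promoting proliferation, in neural progenitors as in tumours, and for restraining genes such as Bcl2l11; miR-17-92 is itself activated by Myc proteins.

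The mature miRNAs that carry most AGO2 reads of the 9 genes are shown because their seeds (bases 2 to 8, in capitals) sort them into 4 families that cut across the polycistrons. The sequences are those of RefSeq for GRCm38.p6, 5′ to 3′, and 9 of 9 genes had an entry. The miR-17 family holds 4 of the genes, from miR-17-92 and miR-106b-25.
miR-17-5p: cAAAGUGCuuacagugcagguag
miR-20a-5p: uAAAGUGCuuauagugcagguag
miR-106b-5p: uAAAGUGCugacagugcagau
miR-93-5p: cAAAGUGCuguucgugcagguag
The miR-18 family holds the following pair, from miR-17-92 and miR-106a-363.
miR-18a-5p: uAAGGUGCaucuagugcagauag
miR-18b-5p: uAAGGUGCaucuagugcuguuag
The miR-19 family has a single member here.
miR-19a-3p: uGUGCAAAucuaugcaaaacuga
The miR-25/92 family joins the last miRNAs of miR-17-92 and miR-106b-25.
miR-92a-3p: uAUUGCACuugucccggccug
miR-25-3p: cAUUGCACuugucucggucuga

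Outside the seed the relatives remain close. miR-17-5p and miR-20a-5p are identical at 21 of 23 positions, miR-18a-5p and miR-18b-5p at 21 of 23, and miR-17-5p and miR-93-5p at 19 of 23. miR-106b-5p matches miR-17-5p at 18 of 21 positions, and miR-25-3p matches miR-92a-3p at 18 of 21. The mature miR-92a-3p occurs at 2 places in the genome, Mir92-1 and Mir92-2, whereas each other sequence printed above occurs at 1. The mature miR-19b-3p, of the same seed as miR-19a-3p, also occurs at 2 places, Mir19b-1 and Mir19b-2. How reads with several genomic matches were handled is not given in the sources used here, and the part this plays at Mir92-1 and the Mir19b genes was not tested.

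Facts of the libraries bear on every value. From the scores, sequencing depth of input over IP came to 1.92 in the knockout-labelled pair and 6.34 in the wild-type pair, and depth of the knockout-labelled over the wild-type IP to 2.28. Equal read counts in both IPs therefore stand for a log2 of 1.19 in favour of wild type once scaled to depth. Neuronal marker genes had exonic regions in 5 of 5 genes in both libraries, as did neural progenitor markers. Erythroid markers had them in 2 of 3 genes in the knockout-labelled library and 1 of 3 in wild type, and endothelial markers in 3 of 3 and 1 of 3. The endothelial ones had at most 3 reads each and none was enriched. Over all genes, 9362 had an exonic region in the knockout-labelled library and 7237 in wild type, so these marker counts do not compare cell content. Fmr1 itself carried 5 regions in the knockout-labelled IP and 2 in wild type, none of them enriched. With 1 IP per genotype no difference has a replicate check: every p and interval below compares 2 libraries, not the genotypes, and intervals cover counting error only. In whole brain, fewer cells with a miRNA and less of it per cell cannot be told apart.

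Reads are given for the region with the highest −log10 p at each gene, recovered from the authors' scores. These regions lie on mature arms of 21 to 23 bases, so reads can be set beside each other across genes. Among the miR-17-92 genes, Mir17 (ENSMUSG00000065508.1, chr14:115043671-115043754, plus strand), the first hairpin of the transcript, had 248 reads in the knockout-labelled IP (exact 95% Poisson interval 218 to 281) and 326 in the wild-type IP (292 to 363.4). It was the leading gene of its polycistron in both libraries.

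Mir18 (ENSMUSG00000065403.1, chr14:115043851-115043946), which makes miR-18a, had 170 reads in the knockout-labelled IP (145 to 198) and 145 in the wild-type IP (122 to 171). Alone among the 9 genes it had more reads in the knockout-labelled library, before scaling to depth. Scaled to depth it was higher in wild type, with a log2 of wild type over knockout-labelled of 0.97 (0.64 to 1.30). Mir20a (ENSMUSG00000065442.1, chr14:115044157-115044263) had 124 knockout-labelled reads (103 to 148) and 202 wild-type reads (175 to 232), so Mir18 stood above Mir20a in the knockout-labelled IP and below it in wild type.

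The other miR-17-92 members were low. Mir19a (ENSMUSG00000065416.1, chr14:115044000-115044081), the third hairpin of the transcript, had 38 reads in the knockout-labelled IP (26.9 to 52.2) and 39 in the wild-type IP (27.7 to 53.3). Mir92-1 (ENSMUSG00000076062.1, chr14:115044427-115044506), the last hairpin, had 23 (14.6 to 34.5) and 26 (16.98 to 38.1) in the same order of libraries. For both genes the 2 libraries' intervals overlapped, but these reads are not scaled to depth. Scaled to depth, the log2 of wild type over knockout-labelled was 1.19 at Mir19a (0.51 to 1.87) and 1.30 at Mir92-1 (0.45 to 2.17).

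Of the miR-106b-25 genes, Mir106b (ENSMUSG00000065514.1, chr5:138165737-138165818, minus strand) had 328 reads in the knockout-labelled IP (293 to 365) and 405 in the wild-type IP (367 to 446). It had the most reads of all 9 genes in either library. Mir93 (ENSMUSG00000065527.1, chr5:138165523-138165610) had 192 knockout-labelled reads (166 to 221) and 202 wild-type reads (175 to 232). Mir25 (ENSMUSG00000065394.1, chr5:138165321-138165404) had 16 knockout-labelled reads (9.15 to 26.0) and 33 wild-type reads (22.7 to 46.3), the fewest of the 9 genes in the knockout-labelled IP.

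Mir18b (ENSMUSG00000077111.2, chrX:52742331-52742413, minus strand) stood for the X-linked paralog with 49 reads in the knockout-labelled IP (36.3 to 64.8) and 72 in the wild-type IP (56.3 to 90.7). It therefore ranked below Mir18, its seed relative on chromosome 14, in both libraries.

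**Figure D1:**
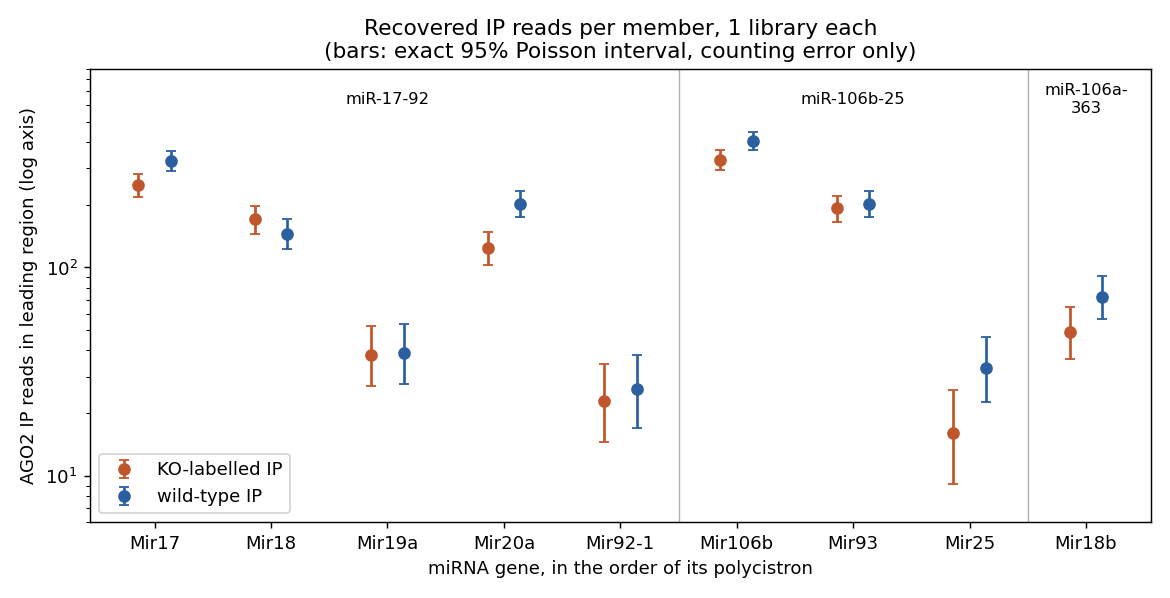
AGO2 IP reads (log axis) in the leading region of each of the 9 genes, knockout-labelled IP left of wild-type IP, 1 library each, grouped by polycistron, with exact 95% Poisson intervals for counting error. Mir106b and Mir17 lead with 328 and 248 reads in the knockout-labelled IP and 405 and 326 in wild type, and only at Mir18 is the knockout-labelled point the higher of the pair. The reads are not scaled to depth.

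In order of reads, the knockout-labelled IP ran Mir106b, Mir17, Mir93, Mir18, Mir20a, Mir18b, Mir19a, Mir92-1 and Mir25. Neighbours whose Poisson intervals overlapped in that order were Mir17 and Mir93, Mir93 and Mir18, Mir18 and Mir20a, and all neighbours from Mir18b down. In wild type the order was Mir106b, Mir17, Mir20a level with Mir93, Mir18, Mir18b, Mir19a, Mir25 and Mir92-1. There the intervals overlapped only between Mir20a and Mir93, between Mir19a and Mir25 and between Mir25 and Mir92-1. By reads Mir106b was 31st of 326 miRNA genes in the knockout-labelled IP and 31st of 309 in wild type, and Mir17 was 39th and 38th. Mir25 was 206th and 179th.

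Each member was enriched over its input, taken here as a −log10 p of at least 3 and a log2 of at least 3. In the knockout-labelled IP 9 of 9 passed, beside 68.7% of the 339 miRNA genes with a region and 3.08% of all regions. In the wild-type IP 9 of 9 passed, beside 89.1% of 312 miRNA genes and 24.1% of all regions. The wild-type count is thus close to the background of miRNA genes. Both counts were partly set by the choice of members, which leaves out hairpins of these polycistrons with few or no regions.

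By gene, the authors' log2 over input in the knockout-labelled IP was 8.89 for Mir17, 8.35 for Mir18, 6.19 for Mir19a, 7.89 for Mir20a and 5.46 for Mir92-1. It was 8.30 for Mir106b, 8.52 for Mir93, 4.94 for Mir25 and 6.55 for Mir18b, with −log10 p between 6.38 at Mir25 and 148 at Mir106b. The median was 7.89, against 5.80 over all 339 miRNA genes with a region and 6.92 over the 188 with at least 20 reads. With the longest region of each member in place of the one with the highest −log10 p, the members' median was 6.22.

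For the wild-type IP the authors' log2 over input was 11.01 for Mir17, 9.84 for Mir18, 7.95 for Mir19a, 10.32 for Mir20a and 7.36 for Mir92-1. It was 11.33 for Mir106b, 9.32 for Mir93, 7.71 for Mir25 and 8.83 for Mir18b. The −log10 p ran between 21.1 at Mir92-1 and 400 at Mir106b, the largest value the table lists. The median was 9.32, against 8.09 over all 312 miRNA genes. These log2 values are not comparable between the libraries: 7 of 9 members had an input value of 1, the smallest listed, in both pairs, and at such values equal IP reads give a log2 that is 1.72 higher in the wild-type pair.

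The regions mark which arm AGO2 held. The 5p arm carried the leading region at Mir17, Mir18, Mir20a, Mir106b, Mir93 and Mir18b, and the 3p arm at Mir19a, Mir92-1 and Mir25, in both libraries. Of 18 leading arms, 15 had regions beginning 1 base before the annotated mature miRNA, and their ends fell within 4 bases of its end. A second arm was called at 3 genes.

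At Mir17 the 5p arm had 248 and the 3p arm 39 reads in the knockout-labelled IP, so that 86.4% were 5p (exact binomial 95% interval 81.9 to 90.2%). In the wild-type IP it was 326 and 42 reads, or 88.6% (84.9 to 91.6%). At Mir93 the 5p share was 89.3% in the knockout-labelled IP (84.4 to 93.1%) and 91.8% in wild type (87.4 to 95.1%). Both pairs of intervals overlapped, so no difference in arm use between the libraries was detectable at this depth. At Mir106b a 3p region with 30 reads was called in the knockout-labelled IP beside 328 5p reads, 91.6% of the sum being 5p. In wild type no region was called on that arm, which does not show that it had no reads, since the files list called regions only.

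**Figure D2:**
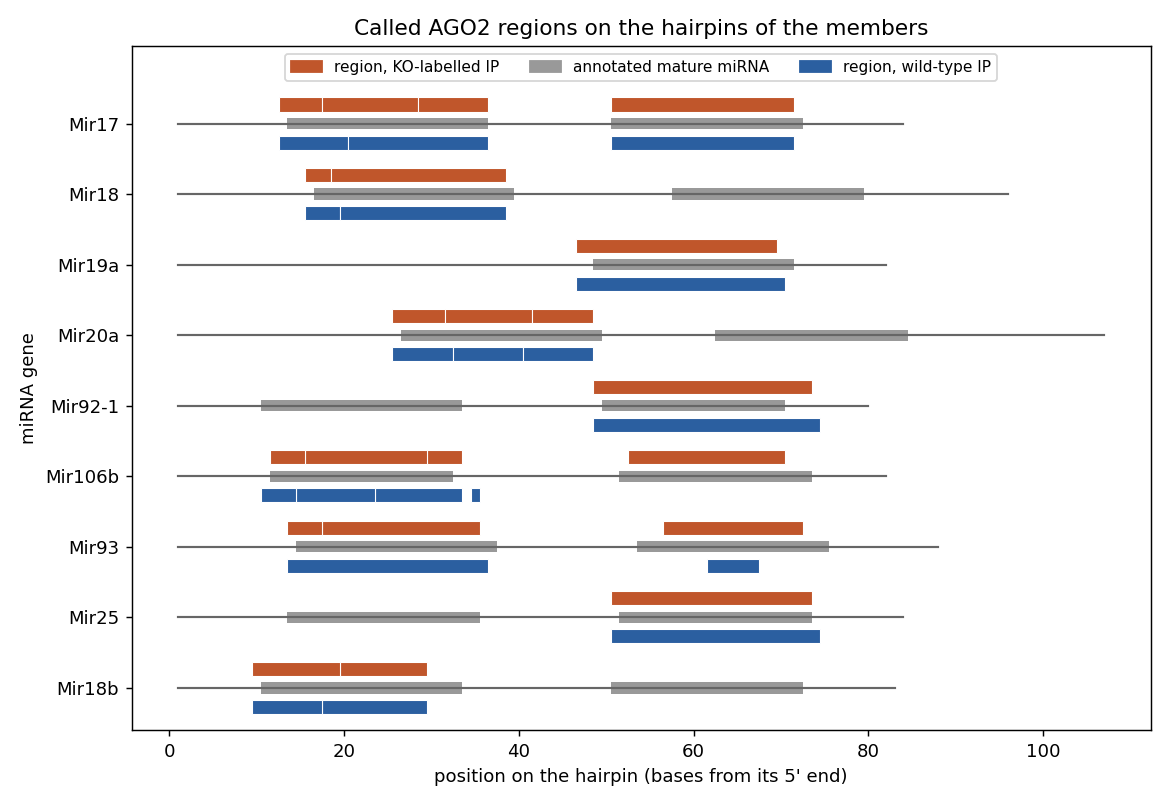
Called AGO2 regions along each hairpin (bases from its 5′ end), knockout-labelled IP above and wild-type IP below the hairpin line, on which grey boxes mark annotated mature miRNAs. Regions cover the 5p arm at 6 genes and the 3p arm at Mir19a, Mir92-1 and Mir25, with a second arm at Mir17, at Mir93 and, in the knockout-labelled IP, at Mir106b; white lines divide abutting regions.

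Because the hairpins of a polycistron come from a shared transcript, their shares of its reads can be compared within a library. The miR-17-92 regions summed to 603 reads in the knockout-labelled IP and 743 in wild type. Mir17 took 41.1% of them in the knockout-labelled IP (exact binomial 95% interval 37.2 to 45.2%) and 43.9% in wild type (40.3 to 47.5%). Its share thus differed by less than counting error.

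The shares of Mir18 and Mir20a moved in opposite directions, though shares of a common total depend on each other. Mir18 took 28.2% of the miR-17-92 reads in the knockout-labelled IP (24.6 to 32.0%) and 19.5% in wild type (16.7 to 22.6%), and these intervals did not overlap. Mir20a took 20.6% in the knockout-labelled IP (17.4 to 24.01%) and 27.2% in wild type (24.02 to 30.5%), and these intervals met without overlapping. Mir19a took 6.30% and 5.25%, and Mir92-1 3.81% and 3.50%, in the knockout-labelled and the wild-type IP, with overlapping intervals.

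The miR-106b-25 regions summed to 536 reads in the knockout-labelled IP and 640 in wild type. Mir106b took 61.2% in the knockout-labelled IP (56.9 to 65.3%) and 63.3% in wild type (59.4 to 67.0%). Mir93 took 35.8% (31.8 to 40.0%) and 31.6% (27.98 to 35.3%), and Mir25 2.99% (1.72 to 4.80%) and 5.16% (3.58 to 7.17%), in the same order of libraries. All 3 pairs of intervals overlapped. In miR-17-92 and miR-106b-25 the miR-17 family hairpins therefore held most reads and the miR-25/92 hairpin at the 3′ end held the least of the members. At Mir92-1 the mature miRNA matches Mir92-2 as well, and how such reads were handled is not given. The counts at Mir92-1 may therefore not give its level, which was not tested.

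**Figure D3:**
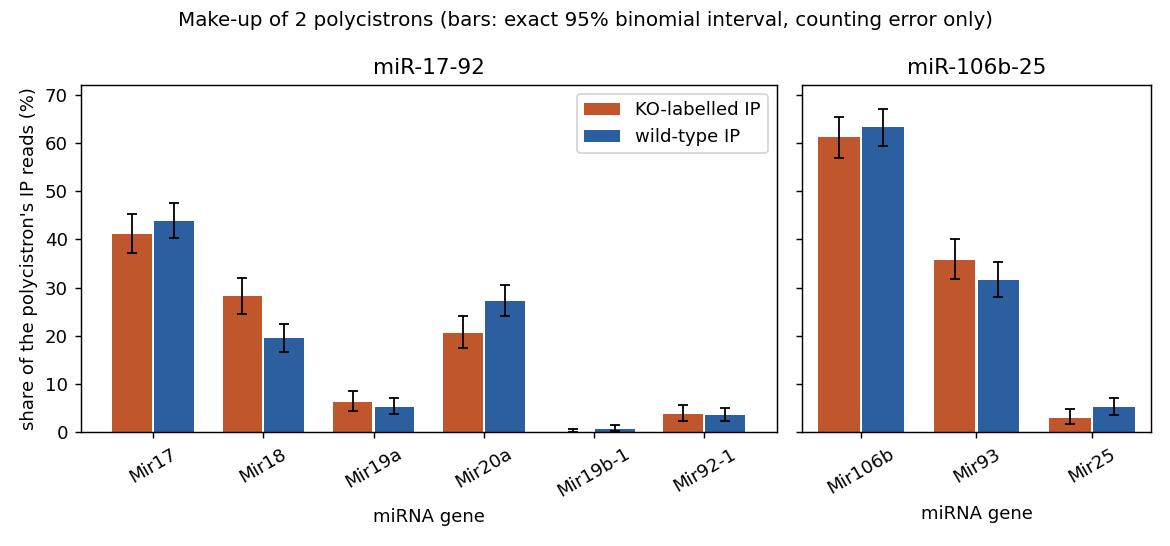
Share of a polycistron's AGO2 IP reads (%) at each of its hairpins, knockout-labelled IP left of wild-type IP, with exact 95% binomial intervals for counting error. Mir18 holds 28.2% in the knockout-labelled IP and 19.5% in wild type, Mir20a 20.6% and 27.2%, while the 3 hairpins of miR-106b-25 keep overlapping intervals.

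The remaining hairpins of the polycistrons had few or no regions. Mir19b-1 of miR-17-92 had a region of 5 reads in wild type and none in the knockout-labelled IP; reads of its mature miRNA match Mir19b-2 as well, so these counts do not give its level. On the X chromosome, Mir20b had a region of 4 reads in the knockout-labelled IP, with a log2 of 2.94 over input and a −log10 p of 1.30, below the limits, and none in wild type. Mir19b-2 had a region of 6 reads in wild type only. No region was called at Mir106a, Mir92-2 or Mir363 in any table, although miR-106a-5p differs from miR-17-5p at a single position of 23. Mir92b on chromosome 3, whose mature miRNA has the seed of miR-92a-3p, had 101 reads in the knockout-labelled IP and 79 in wild type. That is above both Mir92-1 and Mir25 in each library, though the counts at Mir92-1 may not give its level.

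The host transcripts themselves carried no AGO2 region outside the miRNA genes in any table. This held for Mir17hg, the transcript in whose exon the miR-17-92 hairpins lie, for Mcm7, the replication helicase gene that holds miR-106b-25, and for Kis2. Mir106b lies in an intron of both Mcm7 transcripts that span it, and Mir93 and Mir25 overlap an exon of 1 of the 3 that span them.

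The direct comparison of the IPs is in the authors' deposited table, whose log2 sets wild type over knockout-labelled, so that a positive value is lower in the knockout-labelled IP. Nearly all regions of that table, 46799 of 46862, are those called in the wild-type IP. There, 9 of 9 members were above 0, but so were most regions, with 2915 of all 46862 below 0. Of the members, 7 passed a −log10 p of 3 and a log2 of 1 as higher in the wild-type IP. The background is 64.1% of 312 miRNA genes and 3.39% of all 46862 regions, so that the members' count is near that of miRNA genes at large.

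Among the miR-17-92 members, the authors' deposited table gives a log2 of 1.58 for Mir17 (exact 95% interval 1.34 to 1.83, −log10 p 41.6) and 1.88 for Mir20a (1.55 to 2.21, −log10 p 33.6). The same deposited table from the authors gives Mir18 0.97 (0.64 to 1.30, −log10 p 8.63), under the limit on log2. Mir18's interval overlapped neither that of Mir17 nor that of Mir20a, the only 2 of 10 pairs in the polycistron to be apart. This rests on the same IP reads as the shares above. No such count was made for other miRNA genes, so it is not known to be particular to this polycistron. Over the 224 miRNA genes with at least 20 reads, the quartiles of this log2 were 1.23 and 1.89. Mir17 and Mir20a lay between them and Mir18 below. Mir19a stood at 1.19 (0.51 to 1.87, −log10 p 3.53) in the authors' deposited table. Mir92-1 had 1.30 (0.45 to 2.17) and, at a −log10 p of 2.78 in the authors' deposited table, missed the limit on p.

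The miR-106b-25 members all passed: the authors' deposited table lists a log2 of 1.49 for Mir106b (1.27 to 1.70, −log10 p 46.8), 1.25 for Mir93 (0.96 to 1.55, −log10 p 18.1) and 2.14 for Mir25 (1.26 to 3.08, −log10 p 6.93). Their intervals overlapped in each of 3 pairs, the widest being that of Mir25 with its few reads. Mir18b had 1.71 (1.17 to 2.26, −log10 p 10.8) in the authors' deposited table, and its interval overlapped that of Mir18.

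Summed over hairpins, the log2 of wild type over knockout-labelled was 1.49 for miR-17-92 (1.33 to 1.65), 1.44 for miR-106b-25 (1.28 to 1.61) and 1.75 for miR-106a-363 (1.22 to 2.28). The miR-106a-363 sum is mainly Mir18b, with 49 of 53 knockout-labelled and 72 of 78 wild-type reads. A hairpin with no called region was counted as having no reads, although its reads are not known. Mir19b-2 thus entered with 6 wild-type reads alone, though the authors' deposited table gives a knockout-labelled value of 3 there (an added read included). Mir20b entered with 4 knockout-labelled reads alone. The miR-106a-363 sum is therefore not a value for the whole polycistron. The 3 sums had overlapping intervals.

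The size of this shift depends on what it is set against. In the authors' deposited table the members' log2 had a median of 1.49 (range 0.97 to 2.14), beside 1.55 for all miRNA genes and 0.38 for the 3123 regions with at least 20 reads outside miRNA genes. Relative to that 0.38, 5 of 9 members passed the limits, and relative to the median of miRNA genes none did. The members' median thus lay near that of miRNA genes as a class, and the part of the depth scaling in it was not tested. By log2 in all 3 tables, the non-member miRNA genes nearest to the members' medians, among 286 with all values, were Mir487b (distance 0.285 on the log2 scale), Mir370 (0.357) and Mir135a-1 (0.360).

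**Figure D4:**
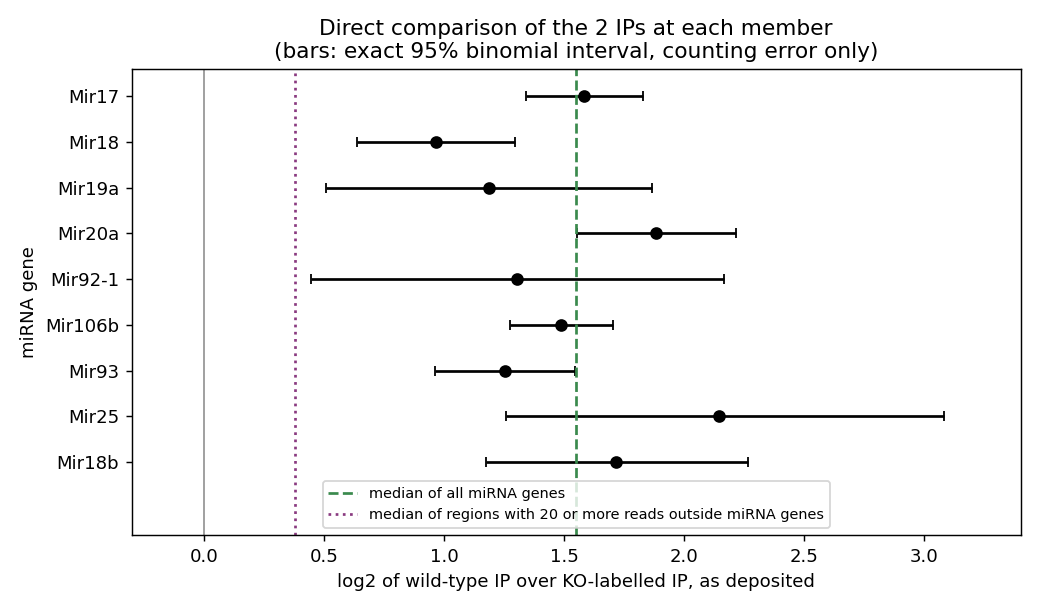
log2 of wild-type over knockout-labelled IP per gene as deposited, with exact 95% binomial intervals for counting error; a positive value is lower in the knockout-labelled IP. All 9 genes lie above 0, between 0.97 at Mir18 and 2.14 at Mir25, around the median of 1.55 for all miRNA genes (dashed) and right of the median of 0.38 for other well-covered regions (dotted).

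The seeds of the members were then sought in AGO2 regions (clusters) on 3′ UTRs. The letters searched, on the transcript strand, were GCACTTT for the miR-17 family, GCACCTT for miR-18, TTTGCAC for miR-19 and GTGCAAT for miR-25/92, each the complement of bases 2 to 8. Other miRNAs share some of these seeds, so a match does not say which miRNA was bound. For the miR-17 family 7 annotated mature miRNAs share the seed, and for miR-25/92 6 do.

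In the knockout-labelled IP, 40 of 950 enriched 3′ UTR clusters held a miR-17 family site, or 4.21% (exact 95% interval 3.02 to 5.69%), against 114 of 9719 other clusters, or 1.17% (0.968 to 1.41%). In wild type it was 75 of 3176 enriched clusters, or 2.36% (1.86 to 2.95%), against 41 of 5407 others, or 0.758% (0.545 to 1.03%). In neither library did the intervals overlap. Enriched clusters were longer, with a median of 71 bases against 45 in the knockout-labelled IP and 51 against 29 in wild type. Windows of the same lengths 200 bases away in the same 3′ UTRs held the site in 0.631% of 1268 (0.273 to 1.24%) for the knockout-labelled IP and 0.495% of 4444 (0.310 to 0.749%) for wild type. The share in enriched clusters was above these too, but windows that overlapped any called region or coding sequence had been left out. What that choice does to the share in the windows was not tested.

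Sites for miR-19 followed the same order. They were in 3.37% of enriched clusters of the knockout-labelled IP (2.32 to 4.72%), against 1.03% of others and 0.868% of the windows. For wild type the shares were 2.11% (1.64 to 2.67%), 0.647% and 0.563%. Sites for miR-25/92 were in 1.26% of enriched clusters of the knockout-labelled IP (0.654 to 2.20%), against 0.340% of others (0.234 to 0.477%) and 0.315% of the same-length windows (0.0860 to 0.806%). The interval for enriched clusters was apart from that of other clusters but overlapped that of the windows, and at limits of 5 and 4 it overlapped that of other clusters too. In wild type they were in 0.724% (0.460 to 1.08%), against 0.351% of others (0.212 to 0.548%) and 0.315% of the windows (0.172 to 0.528%), with overlapping intervals in both comparisons. Sites for miR-18 were in 0.632% against 0.309% in the knockout-labelled IP and 0.409% against 0.240% in wild type, with overlapping intervals in either library. With a match to bases 2 to 7 alone they were in 4.21% of enriched clusters (3.02 to 5.69%) against 1.54% of others (1.31 to 1.81%) in the knockout-labelled IP. For wild type that match gave 2.14% (1.67 to 2.71%) against 1.29% (1.01 to 1.63%), so these intervals did not overlap, though the enriched clusters were the longer ones. The site share was thus higher for miR-19 than for miR-18, while Mir18 had more reads than Mir19a; miR-19b, with its 2 genomic copies, is not counted in that.

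**Figure D5:**
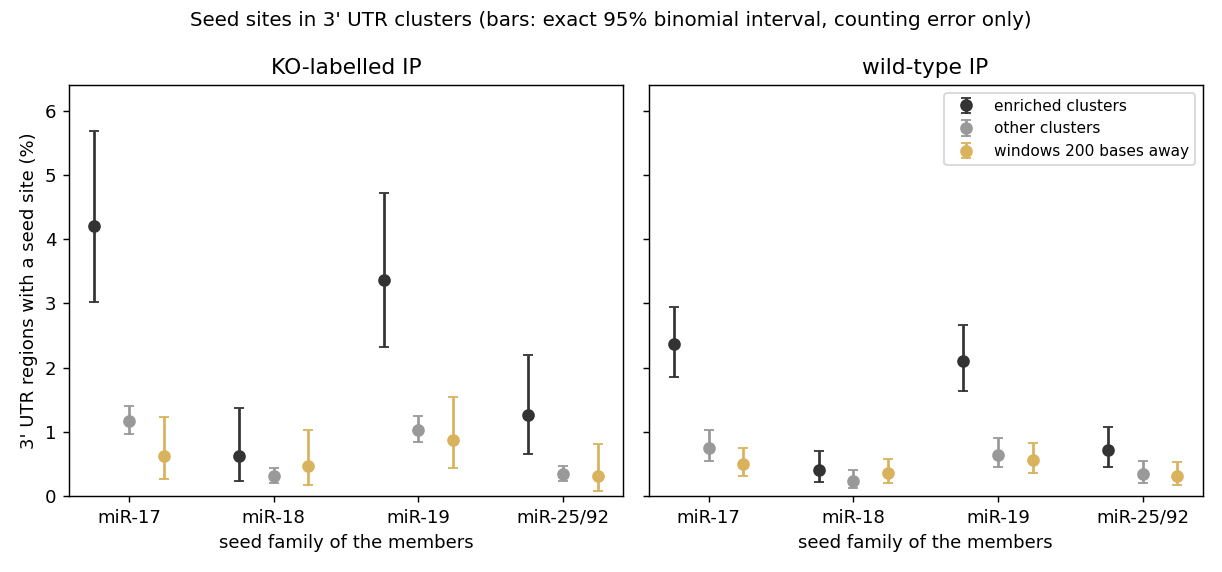
Share of 3′ UTR regions (%) with a seed site of each family in enriched clusters, other clusters and same-length windows 200 bases away, outside called regions. The knockout-labelled IP is left of the wild-type IP, with exact 95% binomial intervals. The miR-17 and miR-19 points for enriched clusters (4.21% and 3.37% in the knockout-labelled IP, 2.36% and 2.11% in wild type) stand clear of both comparisons, those of miR-18 do not.

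The strongest such clusters show what these sites look like. They are those with the highest −log10 p among enriched 3′ UTR clusters with a site. The site is in capitals, with flanks, on the transcript strand (mm10).
Tbc1d9, miR-17 site: ctggcatgtctGCACTTTgaatccttatt
Camk2n2, miR-17 site: gacgcactcatGCACTTTagaacctcggg
Frmd4a, miR-17 site: ttcggccctcaGCACTTTtcttctcctgt
Hipk1, miR-19 site: cttgggattgtTTTGCACaggtgtgtctg
Smarca2, miR-19 site: tctttgctttcTTTGCACaatgtctttgg
Rhebl1, miR-19 site: gcactcttattTTTGCACactcatcccag
Sema4c, miR-19 site: cactcttaactTTTGCACaggcaccagct
Shank1, miR-19 site: tggctgcagttTTTGCACaagcttgcccc
St6gal2, miR-25/92 site: tgggaactgatGTGCAATaaggtactact

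The Tbc1d9 site (chr8:83272638-83272644, plus strand), in a gene of a Rab-GTPase-activating protein family, had 53 knockout-labelled IP reads (log2 6.67 over input) and 52 wild-type reads (log2 7.36). Hipk1, which encodes a nuclear protein kinase, had a site at chr3:103742499-103742505 (minus strand) with 62 knockout-labelled reads (log2 6.89) and 38 wild-type reads (log2 6.91). Smarca2, an ATPase of the BAF chromatin remodelling complex, had 26 knockout-labelled reads (log2 5.64) and 38 wild-type reads (log2 7.91) at its site (chr19:26778212-26778218). All 3 were thus enriched in both libraries. So were the other genes of this list except Frmd4a, whose log2 over input was 2.48 in the knockout-labelled IP, under the limit.

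Camk2n2, an inhibitor of the calcium/calmodulin kinase CaMKII, had 38 knockout-labelled reads (log2 6.19) and 16 wild-type reads (log2 5.08). Shank1, a scaffold of the postsynaptic density, had 39 knockout-labelled reads (log2 4.22) and 30 wild-type reads (log2 6.57). Frmd4a, Rhebl1, Sema4c and St6gal2 had between 20 and 78 knockout-labelled reads and between 23 and 37 wild-type reads. The list also held Nfix, a transcription factor of neural development, with a miR-25/92 site, 79 knockout-labelled reads and 38 wild-type reads.

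At 3′ UTR regions with at least 20 reads, the authors' deposited table gave a median log2 of wild type over knockout-labelled of 0.95 for 55 regions with a site of any of the 4 families, 8 of them past the limits. For 854 regions without such a site, the authors' deposited table gave 0.75, with 107 past the limits. The interquartile range with a site, 0.40 to 1.47, overlapped most of that without, 0.19 to 1.28.

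Of 29 genes listed as targets of these families from general knowledge, 15 had a 3′ UTR cluster in the knockout-labelled IP and 19 in wild type, and in 2 and 10 of them a cluster was enriched. Among all genes with a 3′ UTR cluster, 16.1% had an enriched one in the knockout-labelled IP and 51.7% in wild type. A cluster with a site was found in 5 of them in the knockout-labelled IP and 7 in wild type, and an enriched one in 1 and 5. Over all genes with such a site cluster, 23.5% of 336 had an enriched one in the knockout-labelled IP and 61.5% of 262 in wild type, so the larger count in wild type goes with the larger share of enriched clusters in that library. Epha4, an ephrin receptor of axon guidance, was the gene with an enriched site cluster in both libraries: 26 knockout-labelled reads (log2 4.05 over input) and 16 wild-type reads (log2 5.66) on a miR-17 site. In the authors' deposited table its log2 of wild type over knockout-labelled was 0.43, with a −log10 p of 0.37.

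Socs1, a brake on cytokine signalling, had a miR-19 site cluster with 21 wild-type reads (log2 7.06) and none called in the knockout-labelled IP. Its log2 in the authors' deposited table was 4.58, with a −log10 p of 8.72. Trp53inp1, a p53-induced gene, had a miR-17 site cluster with 9 wild-type reads and, in the authors' deposited table, 4.36 on the log2 scale (−log10 p 3.78). These were the only 2 of the target genes with a region past the limits there, of 26 with an exonic region, beside 8.01% of all 7237 genes with such a region. Since nearly all regions of that table are those called in the wild-type IP, clusters called in the knockout-labelled IP alone hardly enter it. Both genes were thus listed through the library in which they are high. Tgfbr2, the type II TGF-β receptor, had 4 knockout-labelled and 5 wild-type reads on a cluster with miR-17 and miR-19 sites. Mylip, an E3 ligase for the LDL receptor, had 6 and 5 on a miR-19 site. Both passed the limits over input in wild type alone, but equal reads over an input value of 1 give a higher log2 there. In the authors' deposited table their log2 was 1.93 (−log10 p 1.21) and 0.70 (−log10 p 0.28), under the limit on p. Zbtb4 had 2 site clusters of 6 reads each in the knockout-labelled IP, neither enriched. E2f1, Rbl2 and E2f3, of the cell cycle pathway, had site clusters of at most 4 reads. Bcl2l11, a gene that promotes apoptosis, had 2 clusters on its 3′ UTR in the knockout-labelled IP and 1 in wild type, none of them with a site.

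Among 9 listed genes of miRNA regulation or processing, not all specific to these miRNAs, 8 had an exonic region in the knockout-labelled IP and 6 in wild type. An enriched one was found in 3 and 5. Of all genes with an exonic region, 13.2% of 9362 had an enriched one in the knockout-labelled IP and 48.7% of 7237 in wild type, so counts of enriched regions are higher in wild type for genes at large. Lin28b, which blocks let-7 maturation, had 3 enriched regions in the knockout-labelled IP and 5 in wild type, and Dicer1, which trims the hairpins, had 2 and 9. Khsrp, an RNA-binding protein of miRNA processing, had 2 and 4, and was the only gene of the 9 with regions past the limits in the authors' deposited table, 2 of 8. Myc and Mycn, the transcription factors named above, had none in the knockout-labelled IP and 1 each in wild type. Drosha, Dgcr8 and Hnrnpa1 had none in either library, and Lin28a had no region at all.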

How the data were processed

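AGO2 eCLIP IPs of FMR1 ko and wild-type whole brain (1 library each) were described. Per the labels' protocols, the authors trimmed reads with Cutadapt 1.15, removed those on repeats, mapped the rest to mm10 with STAR 2.6.0c, removed duplicates with UMI tools 5.2 and called clusters with CLIPper 1.4. The deposited −log10 p and log2 per region set an IP against its input, or, in the series table, both IPs against each other. No source used here states how the series table was computed; wild type was read as its numerator since 46799 of its 46862 regions are those of the wild-type file and its numerators matched that file's recovered reads in 100% of 42616 regions.

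Read counts were recovered from the deposited log2 values, which equalled the log2 of a whole-number ratio, offset by depth, in 99.97% (knockout-labelled), 99.97% (wild type) and 99.96% (series table) of regions; the listed −log10 p was met within 1% in 100% of scored regions. In 93 of 93 regions shared by the knockout-labelled file and the series table, the series value was 1 above the IP reads, so 1 read had been added; whether inputs were treated alike could not be checked. The recovery was tested on simulated data.

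RefSeq hairpins matched the genome in 1005 of 1005 cases. Exact binomial and Poisson 95% intervals came from scipy 1.17.1, and overlaps from bedtools 2.31.1. Depth per library is not given; ratios are. Genes named are all members, the other hairpins of their polycistrons and hosts, listed regulators, target genes with most site clusters (ties included), the 6 top site clusters per library and the 3 nearest miRNA genes; Bcl2l11 was chosen after its values were seen. Members and lists were chosen with earlier results of these data known. Alternatives covered limits, overlap, region choice, centring, seed length and windows.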

Additional observations from a re-analysis of the deposited data

How the results depend on the processing

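Over the settings tried, 44 of 54 alternative values kept their direction and stayed close to the given value. For a count, close means within 1.5 times. These included all counts of members enriched over input (9 of 9) and the shares of Mir18 and Mir20a. Some could not have differed: the members' regions lie wholly inside their hairpins, so asking for a larger overlap repeated the given values. The same held for leaving Mir19b-1 out of the knockout-labelled shares and for taking wild-type shares from the wild-type regions. The 44 therefore do not measure how robust the results are. The count of members higher in wild type, 7 as deposited, was 5 relative to regions with at least 20 reads outside miRNA genes, 1 at limits of 5 and 2, and 0 when log2 was taken relative to the median of all regions or of all miRNA genes. The members' median log2 of wild type over knockout-labelled, 1.49 as deposited, was 1.11 relative to regions with at least 20 reads outside miRNA genes, −1.29 relative to all regions and −0.063 relative to all miRNA genes. These values follow from what is subtracted. The median of all regions, 2.77, is the log2 that 3 wild-type reads, the fewest listed, have over a knockout-labelled value of 1. It therefore reflects regions at the smallest counts. The share of clusters with any site, enriched minus other, was 10.7 percentage points with bases 2 to 7 in the knockout-labelled IP (5.68 with bases 2 to 8). In wild type it was 5.21 with bases 2 to 7 and 4.503 at limits of 5 and 4 (3.25 as given), and for the miR-17 family 2.48 at limits of 5 and 4 (1.60 as given); the cause was not tested. The windows 200 bases away, log2 without the added read and the other sums for shares were added after the data had been seen. No paired analysis was possible because each genotype has 1 library. Low counts limit Mir25, Mir92-1 and Mir19a most.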
